A study of Mus musculus with 100 samples.

Results

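The genes examined here are 10 loci of the prostaglandin and leukotriene pathway in mouse macrophages: Pla2g4a, Ptgs2, Ptgs1, Ptges, Tbxas1, Hpgds, Alox5, Alox5ap, Ptger4 and Ptger2. Every ChIP-seq peak or region that the authors' annotation assigned to one of these genes, by the nearest transcription start, was taken from each of the 15 deposited count tables. That gave 1492 peaks out of 610301, for 10 of the 18524 genes named in the tables. The assignment says which start is nearest and not which gene a site acts on.

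Cytosolic phospholipase A2 (Pla2g4a) releases arachidonic acid from membranes, and the cyclooxygenases convert it to prostaglandin H2. Ptgs1 encodes the constitutive cyclooxygenase and Ptgs2 the inducible one. Terminal synthases then make prostaglandin E2 (Ptges), thromboxane A2 (Tbxas1) or prostaglandin D2 (Hpgds). Alternatively, 5-lipoxygenase (Alox5), with the membrane protein that presents arachidonic acid to it (Alox5ap), starts leukotriene synthesis. Ptger4 and Ptger2 encode receptors for prostaglandin E2 that raise cyclic AMP. In macrophages this pathway produces the lipid mediators of fever, pain and vascular leak.

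Most libraries came from bone marrow-derived macrophages (BMDMs) of wild-type C57BL/6 mice, 8 to 12 weeks old, given vehicle (Veh) or Kdo2 lipid A (KLA), a Toll-like receptor 4 agonist, for 6 h. NCoR, HDAC3, p65, Fosl2, PU.1, PGC1b, ERK1 and p300 were each profiled in both conditions. By the labels, the p300 Veh libraries are at 0 h, while the NCoR, HDAC3, p65, Fosl2 and PU.1 Veh libraries are at 6 h. For p300, KLA and the time in culture therefore cannot be told apart. H3K27ac, a mark of active enhancers and promoters, was profiled in 3 designs. The first compared NCoR flox/flox cells (called WT) with NCoR flox/flox, LysMCre cells (NKO), both with Veh and KLA. The second compared PGC1b flox/flox with PGC1b flox/flox, LysMCre cells, both with Veh and KLA. The third compared wild-type cells given DMSO and Veh, DMSO and KLA, or the HDAC3 inhibitor RGFP966 and KLA. LysMCre deletes the floxed gene in myeloid cells, and floxed cells without Cre were the controls. PGC1b was also profiled with DMSO and Veh, DMSO and KLA, or an ERK inhibitor (ERKi) and KLA, and NCoR with ERKi and KLA. Finally, p300 and ERK1 were profiled in wild-type bone marrow cells at day 0 and day 4 of osteoclast differentiation. Both ERK1 day 0 libraries and ERK1 day 4 replicate 1 are labelled NCoRWT. ERK1 day 4 replicate 2 carries no such label and has another library code. Whether the NCoRWT cells were NCoR flox/flox is not stated in the labels. By the study's methods, osteoclast precursors grown with M-CSF received RANK ligand (RANKL) together with M-CSF over the 4 days.

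The series holds 100 samples in 50 groups of 2, of which 70 libraries had a column in the tables. The 30 input libraries were not analysed here. Library totals ranged from 4.30 to 21.5 M tags. The study's methods call the ChIP replicates biological, but no source used here says whether the 2 libraries of a group came from separate mice or from separate cultures, so a p-value measures the spread between these libraries. An exact permutation test of 2 against 2 cannot go below a two-sided p of 0.333, so all p-values come from edgeR fits over every peak of a table. A lower tag number can come from fewer cells with the site bound or from less binding per cell, and ChIP-seq on pooled cells cannot tell these apart. Of 8 macrophage markers, 8 had an H3K27ac region at the start in the Pgc1b and RGFP966 tables and 5 in the WT and NKO table. No listed T cell, B cell or fibroblast marker had one in any of the 3 tables. Of 6 neutrophil markers 1 had a region, S100a8, with 17.7 to 81.0 tags per 10 M in the RGFP966 table and 27.9 to 55.8 in the Pgc1b table. Of 5 osteoclast markers 1 had one, Ocstamp, with 8.33 to 48.7 in the WT and NKO table.

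Given here 5′ to 3′ are 8 stretches of the mm10 genome, each with a match to a motif named below. Stretches without any match were not printed. Among these were Ptges at chr2:30927350-30927549 and Pla2g4a at chr1:149947030-149947229, both at sites called higher for all 8 factors. Sequences before a start are credited to RefSeq and run on the strand of the gene. The other stretches are 200 bases around the centre of the p65 or PU.1 peak, on the plus strand. Capitals mark matches to consensus motifs: TGANTCA for AP-1 (the family of Fosl2), TTGCNNAA for C/EBP, GAGGAAGT for PU.1, CACGTG for the E-box, TATAAA for the TATA box and the 10-letter NF-kB consensus for p65, on either strand. The first 5 belong to loci where binding rose with KLA, the last 3 to loci where it fell. Several other stretches with a match were left out, so the 8 are a selection. Among those left out were Hpgds (PU.1, C/EBP) and Tbxas1 (AP-1, TATA box) before the start. Pla2g4a at chr1:149839458-149839657 (C/EBP, TATA box) and Alox5ap at chr5:149246077-149246276 (PU.1) were left out too. Ptgs2 before the start is chr1:150099781-150100030, and Ptgs2 gene end is chr1:150108792-150108991, where the NF-kB match follows the AP-1 match. The upstream sites are Ptges at chr2:30925244-30925443, Ptger4 at chr15:5263220-5263419 and, in an intron, Tbxas1 at chr6:38961763-38961962. Ptgs1 before the start is chr2:36230176-36230425, Ptgs1 intron is chr2:36234570-36234769 and Alox5 intron is chr6:116455902-116456101.
Ptgs2 before the start: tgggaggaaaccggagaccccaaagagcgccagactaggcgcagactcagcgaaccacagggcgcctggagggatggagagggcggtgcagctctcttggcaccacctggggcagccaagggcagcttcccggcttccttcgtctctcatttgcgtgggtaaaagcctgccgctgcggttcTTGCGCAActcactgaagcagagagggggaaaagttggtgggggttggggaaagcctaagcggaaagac
Ptgs2 gene end: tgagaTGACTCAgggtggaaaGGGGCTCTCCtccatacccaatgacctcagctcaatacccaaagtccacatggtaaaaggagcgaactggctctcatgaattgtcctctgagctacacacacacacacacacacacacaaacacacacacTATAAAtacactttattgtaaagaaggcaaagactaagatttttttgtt
Ptges upstream: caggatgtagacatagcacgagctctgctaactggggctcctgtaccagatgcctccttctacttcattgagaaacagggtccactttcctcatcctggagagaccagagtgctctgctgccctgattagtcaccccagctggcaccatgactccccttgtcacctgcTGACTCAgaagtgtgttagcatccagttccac
Ptger4 upstream: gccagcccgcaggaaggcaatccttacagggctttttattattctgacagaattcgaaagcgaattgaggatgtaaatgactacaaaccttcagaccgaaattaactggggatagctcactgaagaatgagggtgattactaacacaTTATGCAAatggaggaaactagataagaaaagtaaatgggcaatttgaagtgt
Tbxas1 intron: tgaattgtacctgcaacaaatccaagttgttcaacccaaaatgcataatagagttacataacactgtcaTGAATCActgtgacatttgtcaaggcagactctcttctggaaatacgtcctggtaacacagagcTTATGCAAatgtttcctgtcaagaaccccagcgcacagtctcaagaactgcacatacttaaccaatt
Ptgs1 before the start: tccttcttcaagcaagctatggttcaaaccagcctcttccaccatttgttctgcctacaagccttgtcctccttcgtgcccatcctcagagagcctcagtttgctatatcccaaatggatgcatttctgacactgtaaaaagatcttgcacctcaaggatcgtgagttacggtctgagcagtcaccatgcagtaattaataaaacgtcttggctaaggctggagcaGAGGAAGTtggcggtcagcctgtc
Ptgs1 intron: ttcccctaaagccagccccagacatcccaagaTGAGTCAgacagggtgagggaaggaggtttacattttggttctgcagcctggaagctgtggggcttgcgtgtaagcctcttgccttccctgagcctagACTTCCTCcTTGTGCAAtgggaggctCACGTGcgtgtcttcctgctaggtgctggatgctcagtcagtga
Alox5 intron: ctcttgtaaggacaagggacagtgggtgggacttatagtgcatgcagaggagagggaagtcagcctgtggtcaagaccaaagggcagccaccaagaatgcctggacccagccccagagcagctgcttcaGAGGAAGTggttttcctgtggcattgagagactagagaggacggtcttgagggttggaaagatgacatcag

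The Ptgs2 promoter held a C/EBP match at base -69 from the start, TTGCGCAA, which is the same on both strands. This motif is present in 9.56% of all 32851 RefSeq promoters in the table. The Ptgs1 promoter held a PU.1 match at base -24, a motif in 2.44% of promoters. The Ptgs1 intron stretch held AP-1, PU.1, C/EBP and E-box matches within 200 bases. Among p65 peaks assigned to the 10 genes and called higher with KLA, 25 of 76 held a C/EBP match in the central 200 bases, against 20.3% of all p65 peaks called higher; 18 of 76 held an AP-1 match, against 7796 of 29980, and 5 of 76 an NF-kB match, against 12.6%. Among PU.1 peaks of these genes called lower, 8 of 32 held the PU.1 motif, against 20.0% of all PU.1 peaks called lower. These are descriptions of letters in a window and not of bound sites.

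In each table a peak was called when the edgeR quasi-likelihood test gave an adjusted p under 0.05 and the change exceeded 2-fold, and tags are given per 10 M tags of the library. Over the 8 factors, 32 of 32 Ptges peaks, 29 of 32 Ptgs2 peaks and 154 of 232 Pla2g4a peaks were called higher with KLA, and 0 of each were called lower. Of all peaks tested in the 8 tables together, 26.6% were called higher and 11.1% lower. Ptger4 had 49 higher and 3 lower of 123. Tbxas1 had 42 higher and 18 lower of 163, near the shares of all peaks, with 25.8% higher. Hpgds had 15 and 13 of 78 (19.2% and 16.7%) and Ptger2 18 and 21 of 111 (16.2% and 18.9%). Ptgs1 had 4 higher and 39 lower of 65, Alox5 had 0 and 18 of 44, and Alox5ap had 6 and 30 of 102. With TMM, a scaling that sets the typical peak to no change, Ptges stood at 32 and 0, Ptgs2 at 29 and 0, Pla2g4a at 151 and 2, Ptger4 at 42 and 7, Ptgs1 at 4 and 45, Alox5 at 0 and 23 and Alox5ap at 2 and 38. Tbxas1 stood at 37 and 23 and Ptger2 at 16 and 25, and Hpgds turned to more lower than higher calls, 11 and 19. TMM also moved the shares of all peaks called, so 26.6% and 11.1% are not the background of these TMM counts.

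**Figure D1:**
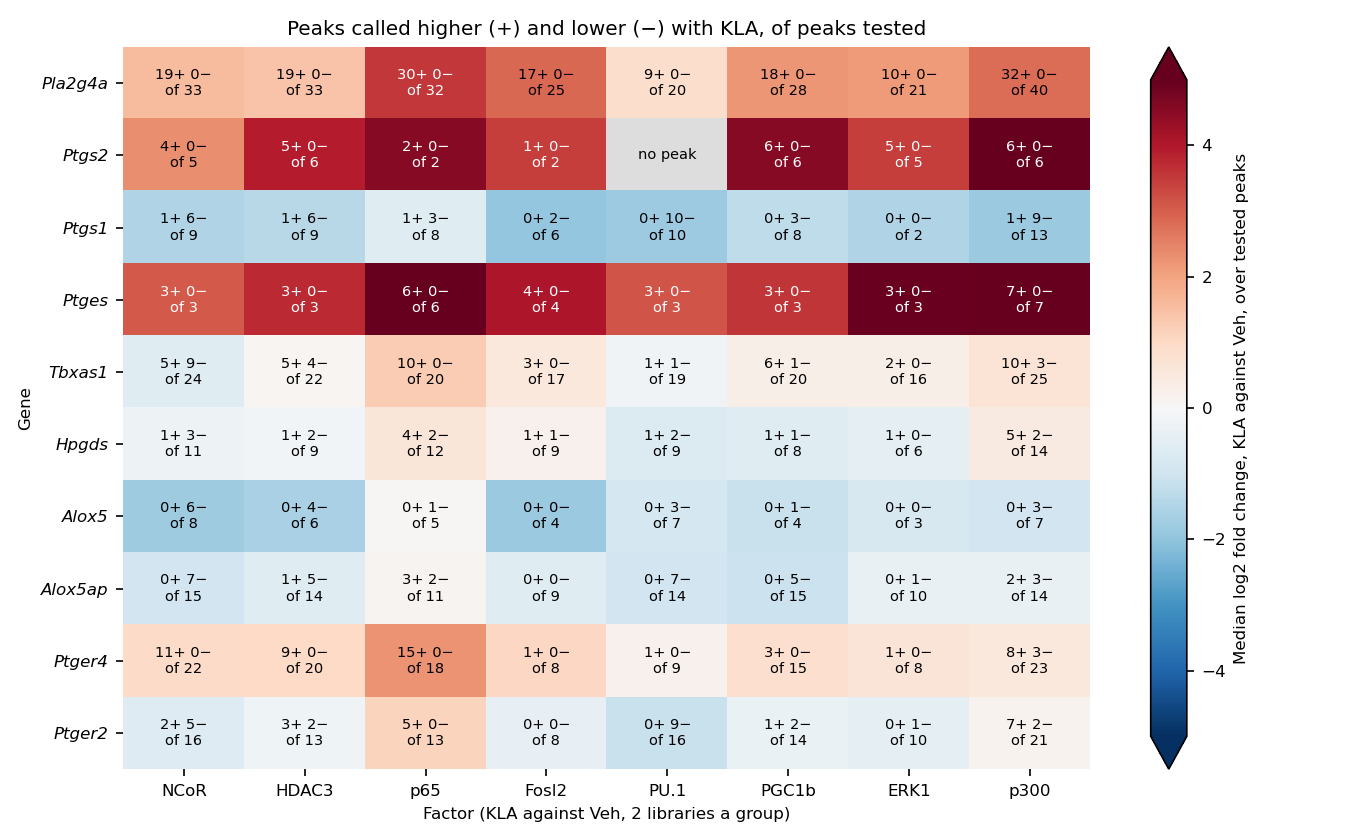
Peaks called higher (+) and lower (−) with KLA, of those tested, for each gene (rows) and factor (columns); the colour is the median log2 fold change over the tested peaks, fitted values of peaks with no tag in a group included, and the scale ends at 5. Ptges, Ptgs2 and Pla2g4a show only higher calls, while Alox5 shows only lower calls.

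The share of peaks called was read against all peaks of the same table. For p65, 76 of 127 member peaks were higher and 8 lower, where 57.0% of all tested peaks were higher and 5.43% lower, and the median log2 fold change was 1.65 for these genes and 1.46 for all peaks. TMM moved the median of all p65 peaks from 1.46 to 0.24 and the split of the members to 49 and 21. Of all 52629 p65 peaks, TMM called 14540 higher and 11205 lower. For p300, 78 of 170 were higher and 25 lower, beside 42.1% and 12.9% of all peaks. TMM gave 68 and 41, beside 22267 and 16245 of all 67998 peaks. For Fosl2, 27 of 92 rose and 3 fell, beside 11.4% and 4.19% of all peaks. TMM made this 35 and 11, beside 5933 and 3027 of all 31283 peaks. The Fosl2 KLA libraries held 4.30 and 8.55 M tags, and the 30 calls became 0 without either Veh library, 49 without KLA replicate 1 and 56 without KLA replicate 2. PU.1, the factor that marks macrophage enhancers, had 15 higher and 32 lower of 107, against 4.53% and 21.7%. TMM, however, gave 23 each way, beside 4629 higher and 5365 lower of all 50690 peaks.

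NCoR had 46 peaks higher and 36 lower of 146, against 23.4% and 16.7% of all NCoR peaks. HDAC3, the deacetylase that NCoR carries, had 47 higher and 23 lower of 135, against 27.5% and 11.3%. For PGC1b 38 were higher and 13 lower of 121, against 16.4% and 6.35%, and for ERK1 22 were higher and 2 lower of 84, against 10.3% and 2.53%. Leaving out 1 library changed some totals by more than 1.5 times. NCoR fell from 82 to 47 without KLA replicate 1 and to 45 without KLA replicate 2. HDAC3 went from 70 to 34 without Veh replicate 1 and 36 without Veh replicate 2, PGC1b from 51 to 32 without either Veh library, and ERK1 from 24 to 13 without KLA replicate 1 and 11 without KLA replicate 2.

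When peak centres within 500 bp were joined, the 8 tables gave 200 sites at the 10 genes, 43 of them present in all 8 tables. Of the 200 sites, 102 had only higher calls, 47 only lower, 3 both and 48 none. A site counts as called when any of its peaks is, so the shares per peak are no background for sites. The share over all joined sites is not given here, so these counts do not show whether the 10 genes stand apart. All 8 Ptgs2 sites and all 9 Ptges sites had only higher calls, as had 39 of 46 Pla2g4a sites. No Alox5 site had a higher call, and 9 of 12 had only lower ones. By the authors' annotation, 8 sites were at promoters, 88 in introns, 94 between genes and 10 elsewhere.

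Pla2g4a lies on chromosome 1 (mm10 149829618 to 149961290, minus strand) and its RefSeq start is 139 kb from that of Ptgs2 (150100031 to 150108234, plus strand), the genes being read away from each other. The tables measure Pla2g4a peaks from 2 starts that are 38.9 kb apart, so distances here are from the RefSeq start. Between the starts of Pla2g4a and Ptgs2, 29 of 31 peaks at 6 sites were called higher. Inside the gene it was 118 of 175 peaks at 31 sites, and beyond its 3′ end 7 of 26 peaks at 9 sites, a share near the 26.6% of all peaks. Of these 9 sites, the 3 at 134 to 152 kb from the start had 6 of 7 peaks higher and the 6 at 858 to 1090 kb had 1 of 19. None of the 232 was called lower.

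The Pla2g4a site 122 kb into the gene was called higher in all 8 tables. There p65 went from 9.63 and 4.66 to 209 and 203 tags per 10 M in the 2 KLA libraries (log2 fold change 4.82). HDAC3 went from 1.45 and 1.11 to 87.3 and 139, a log2 fold change of 6.36. NCoR, with 0 and 7.06 in Veh, reached 77.8 and 69.9. PU.1, which had more lower than higher calls over the 10 genes together, rose at this site from 1.55 and 2.49 to 77.2 and 77.7 (log2 fold change 5.24). Veh and KLA libraries did not overlap for any factor.

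Another Pla2g4a site, in an intron 14.2 kb from the start, was also higher in all 8 tables, but from a higher level in Veh. Here NCoR rose from 57.4 and 111 to 229 and 212, a log2 fold change of 1.39, and HDAC3 from 125 and 97.3 to 207 and 311 (1.21). p65 rose from 19.3 and 19.6 to 218 and 242 (3.56), and p300 from 63.3 and 36.8 to 291 and 323 (2.61). The histone mark at this place is given with the H3K27ac results.

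Upstream of Pla2g4a, towards Ptgs2, the site 1.73 kb before the start had 0 and 6.53 p65 tags per 10 M in Veh and 316 and 388 with KLA. HDAC3 there rose from 2.18 and 1.66 to 121 and 133 (log2 fold change 6.003, SE 0.56, edgeR adjusted p = 6.8e-24), the lowest p of all member peaks for HDAC3. The site 54.4 kb upstream, 84.3 kb from the Ptgs2 start, gave a p65 log2 fold change of 7.64 (SE 0.46), from 0.876 and 0.932 to 219 and 181. PU.1 at that site rose from 3.62 and 1.87 to 133 and 108. p300 had no tag in either Veh library and 88.5 and 71.9 with KLA, at least 83.6-fold higher when 3 tags over the group are taken as the floor. The promoter itself changed less: p65 rose from 30.6 and 30.8 to 81.5 and 96.5 and p300 from 9.40 and 8.54 to 37.3 and 43.8, while NCoR was at 53.8 and 36.5 in Veh and 51.0 and 42.2 with KLA and was not called.

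**Figure D2:**
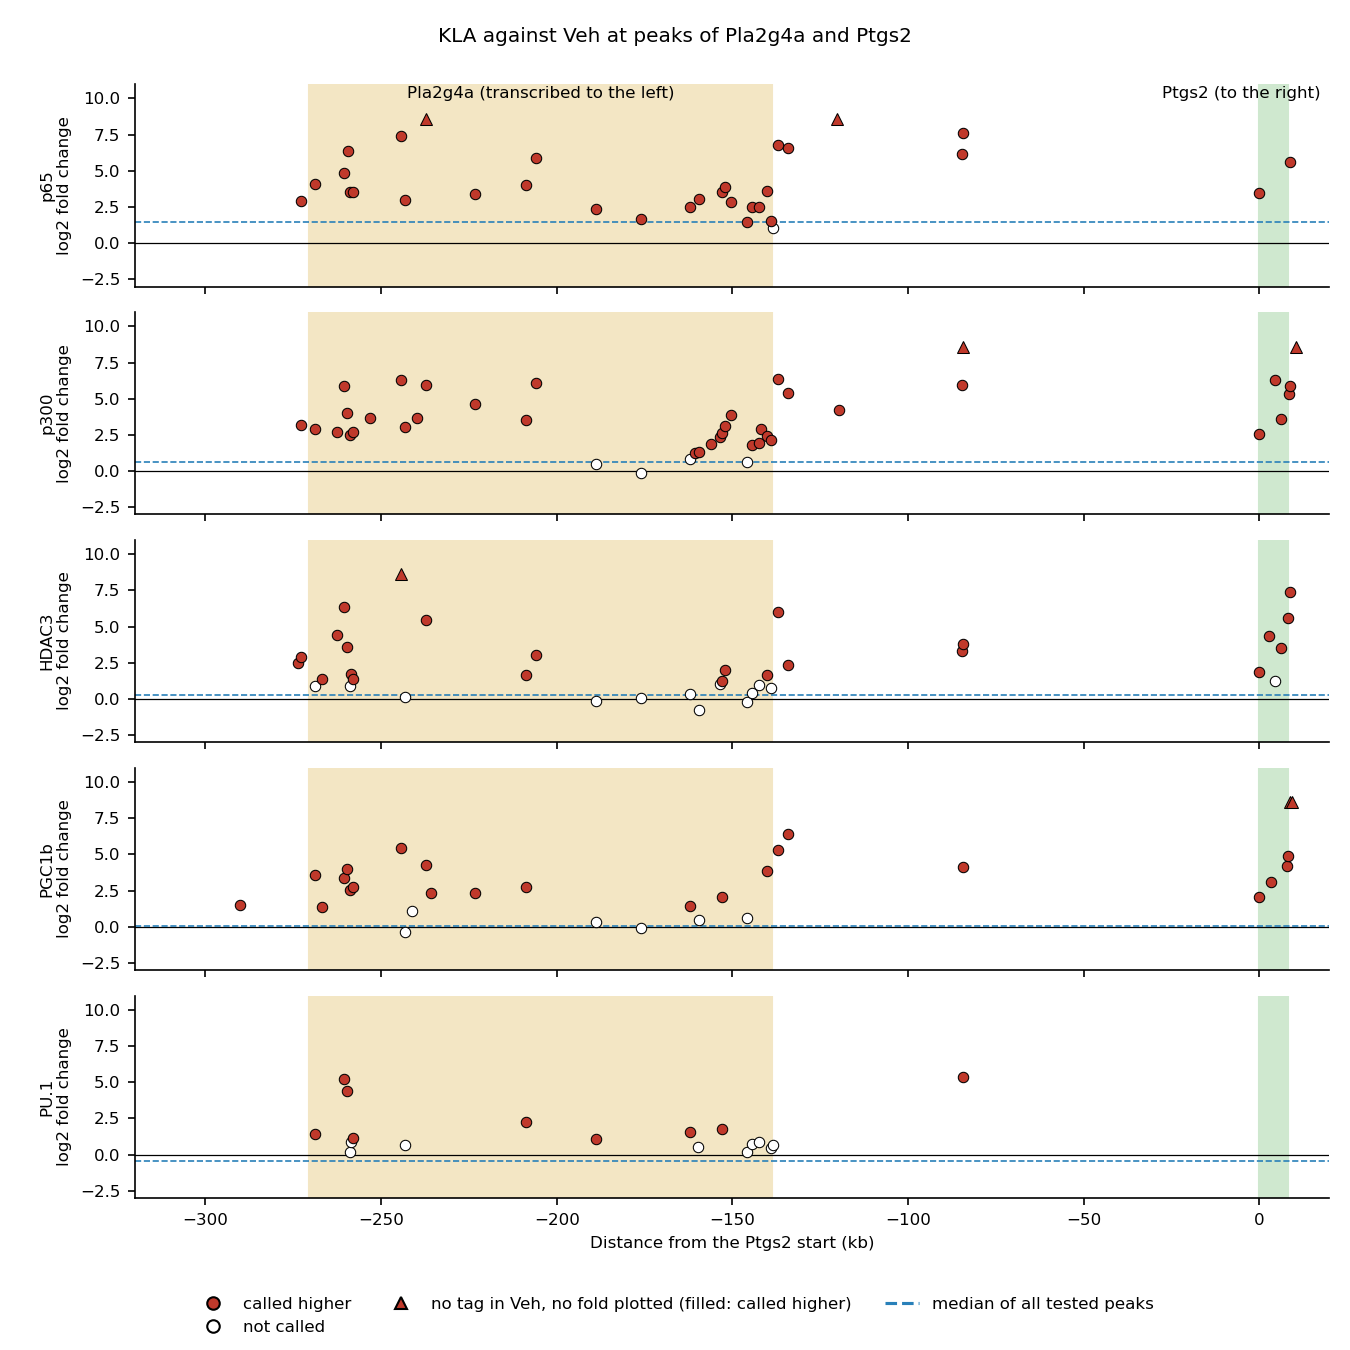
log2 fold change (KLA against Veh) of each p65, p300, HDAC3, PGC1b and PU.1 peak of Pla2g4a and Ptgs2 by distance from the Ptgs2 start in kb, with gene bodies shaded, filled points called higher, and triangles at the top for peaks with no tag in Veh; peaks beyond the axis are not shown. Called peaks stand through Pla2g4a, between the genes and over Ptgs2, none is called lower, and PU.1 has no peak assigned to Ptgs2.

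At the Ptgs2 promoter, binding of 6 factors rose, and Fosl2 was not called by edgeR with library totals. With TMM and with DESeq2, 2 of 2 Fosl2 peaks of Ptgs2 were called higher, the promoter peak included. Per library, NCoR held 46.6 and 44.7 tags per 10 M in Veh and 165 and 158 with KLA. HDAC3 held 58.2 and 70.2 against 181 and 288, p65 14.01 and 28.0 against 214 and 249, and p300 41.4 and 30.2 against 205 and 213. PGC1b held 21.7 and 11.6 against 65.5 and 72.1, and ERK1 7.87 and 6.94 against 82.4 and 80.3. Fosl2 was at 53.6 and 46.1 in Veh and at 76.8 and 255 with KLA, where the KLA libraries were farther apart from each other than the lower one was from Veh. PU.1 had no peak at Ptgs2 in either condition. NCoR and HDAC3, which act as corepressors elsewhere, were present at this promoter before KLA and at a higher level after it.

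Ptgs2 had further sites downstream of the start that were nearly empty in Veh. In the intron 2.80 kb from the start, NCoR (8.36 and 0 against 22.7 and 20.1), HDAC3 (3.64 and 1.11 against 36.9 and 61.5), PGC1b and ERK1 were called higher. At the gene end, peaks centred 7.80 to 8.90 kb from the start were joined to 1 site, which was called in 7 of 7 tables. NCoR had a peak at 8.26 kb with no tag in Veh and 21.9 and 22.1 with KLA, at least 12.4-fold higher. At 8.83 kb PGC1b had no tag in Veh and 59.0 and 57.2 with KLA, at least 74.3-fold higher. p65 at 8.86 kb rose from 1.75 and 0 to 44.1 and 55.4 (log2 fold change 5.64, SE 0.76, edgeR adjusted p = 9.8e-05), p300 at 8.72 kb rose from 2.51 and 0 to 76.7 and 83.2 (5.89), and HDAC3 at 8.31 kb rose from 3.64 and 0 to 73.8 and 89.6 (5.58). The AP-1 and NF-kB matches of the Ptgs2 gene end stretch above lie under this p65 peak, and the NCoR peak at 8.26 kb and the HDAC3 peak at 8.31 kb end before that stretch begins. NCoR had a further peak at 8.74 kb that overlaps it, with no tag in Veh and 18.6 and 22.8 with KLA. At 10.6 kb, p300 alone had a peak, at least 13.4-fold higher than its floor.

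Promoters with the profile nearest to that of Ptgs2 were looked for among 1920 genes with a promoter peak in the same 7 tables. The measure was the Euclidean distance between the log2 fold changes. Its median over genes was 6.53, and the nearest were Mfsd7a at 0.72, Plpp1 at 1.06, Ist1 at 1.40, 4930431P22Rik at 1.43 and Ift57 at 1.49. Plpp1 encodes a lipid phosphate phosphatase.

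**Figure D3:**
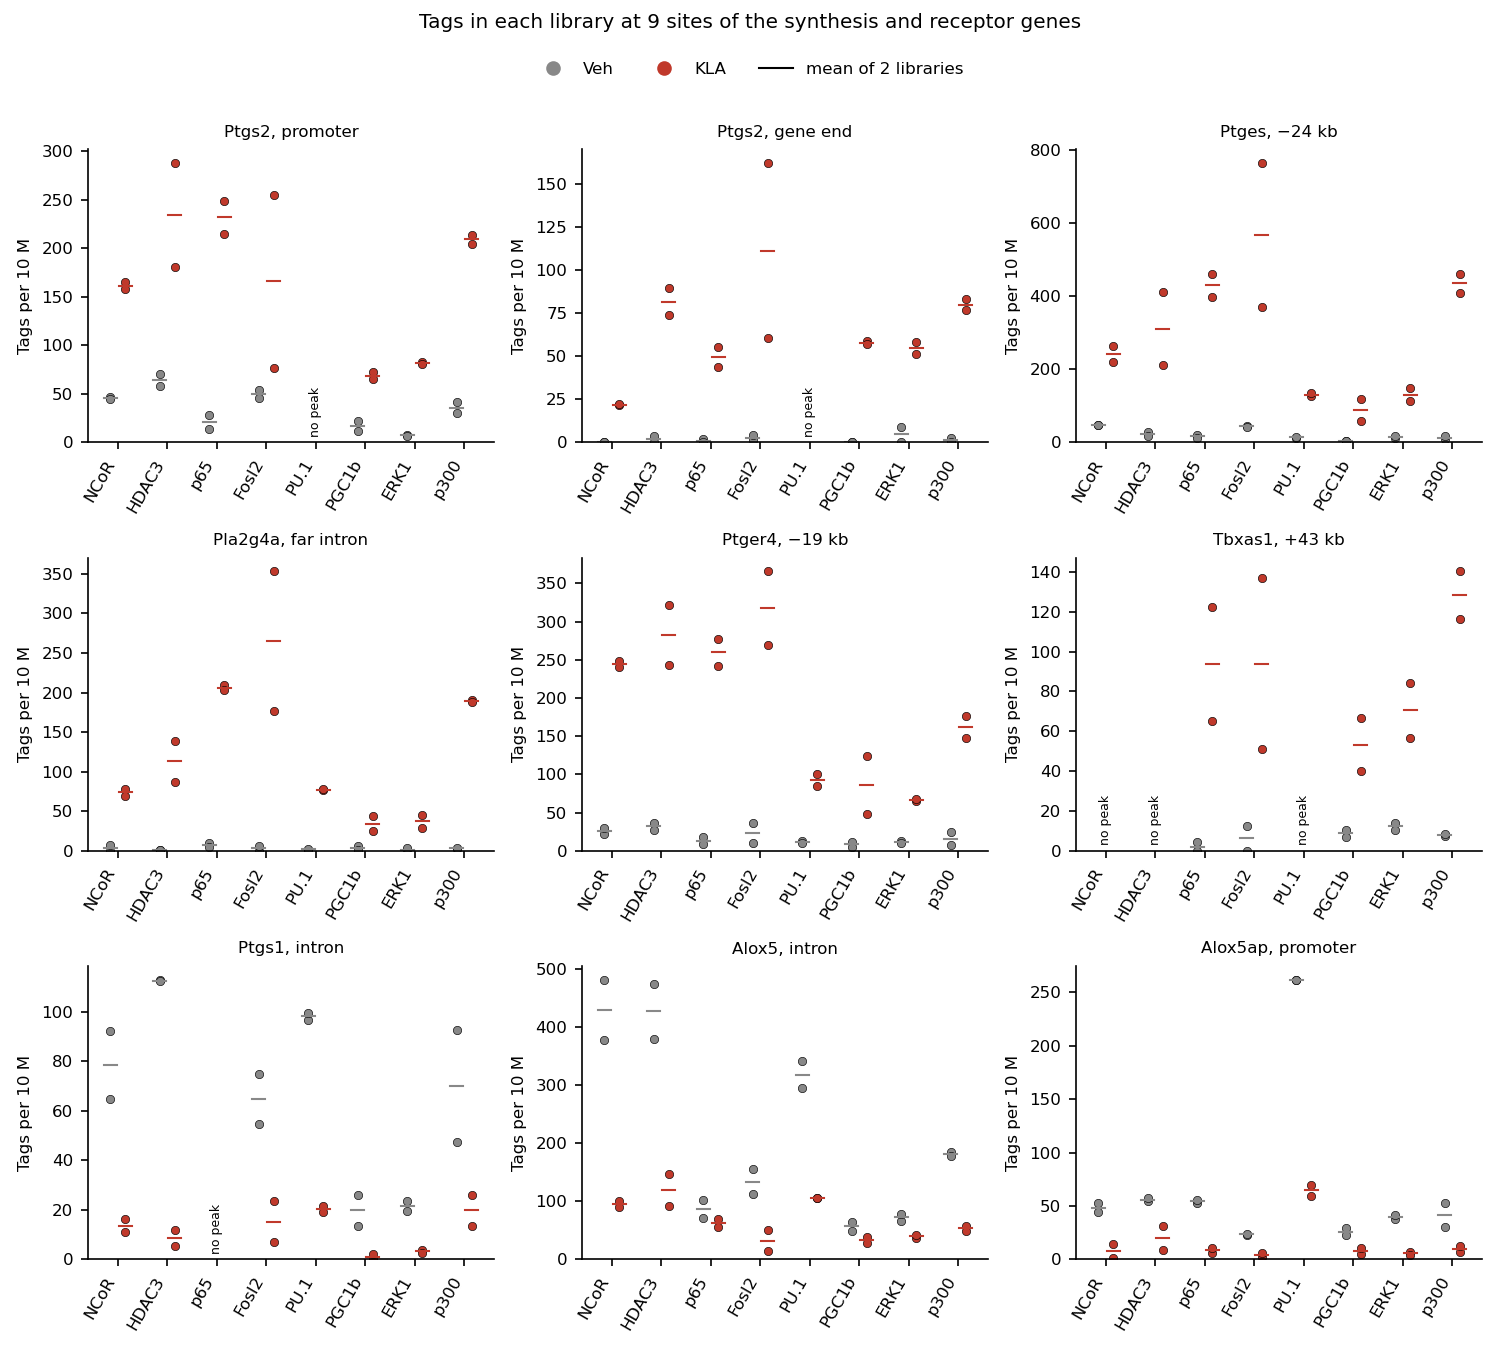
Tags per 10 M in each Veh (grey) and KLA (red) library at 9 sites, with a line at the mean of 2 libraries, for each factor. The 6 sites in the upper rows have higher means with KLA, with Veh near 0 at the Ptgs2 gene end and the Pla2g4a far intron site 122 kb from the start, and the 3 sites in the lowest row (Ptgs1, Alox5, Alox5ap) have lower means with KLA.

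Ptgs1 behaved unlike Ptgs2. Its promoter lost NCoR, from 52.6 and 58.8 to 9.72 and 13.1 tags per 10 M (log2 fold change -2.27), and PU.1, from 73.4 and 72.8 to 19.6 and 22.9 (-1.78). HDAC3 fell from 49.5 and 57.0 to 8.79 and 24.6, p300 from 28.2 and 30.9 to 7.67 and 8.65, and p65 from 28.0 and 41.0 to 3.34 and 14.4 (edgeR adjusted p = 0.018). The sequence before this start, with its PU.1 match, is printed above. In the first part of the gene, 4.15 kb from the start, HDAC3 fell from 113 and 112 to 11.7 and 5.27 (log2 fold change -3.54), NCoR from 92.0 and 64.7 to 16.2 and 11.1 (-2.52), PU.1 from 96.7 and 99.6 to 21.6 and 19.1 (-2.27) and PGC1b from 13.5 and 26.03 to 0 and 2.29 (-3.71). That site is the Ptgs1 intron stretch with 4 kinds of motif.

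At 13.2 kb before the listed Ptgs1 start, a place inside the longer RefSeq record of the gene, NCoR fell from 256 and 286 to 93.1 and 104 and p300 from 84.6 and 57.2 to 12.3 and 12.97. Fosl2 fell there from 90.3 and 61.9 to 0 and 11.7, and at the adjoining peak 13.7 kb before the start it had 38.1 and 35.7 in Veh and no tag with KLA, at least 15.7-fold lower. The longer record begins at 36216742 on chromosome 2, inside this adjoining peak (36216589 to 36216793). The PU.1 peak of the 13.2 kb site is centred between 36217082 and 36217281, near that beginning. p65, PGC1b and ERK1 were not called at the 13.2 kb site. The 4 higher calls of Ptgs1 were all at 26.9 kb upstream, where HDAC3 rose from 1.45 and 1.11 to 31.6 and 47.4 and p65 from 1.75 and 6.53 to 44.1 and 42.4.

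Among the terminal synthases, Ptges (microsomal prostaglandin E synthase) had only gains. It had no site at the listed start in any of the 8 tables. Of its 3 sites with the most calls, the site 23.9 kb upstream rose in all 8 tables. Fosl2 went from 45.1 and 41.9 to 370 and 765, p65 from 21.01 and 12.1 to 398 and 461, p300 from 8.78 and 16.4 to 410 and 462, NCoR from 46.6 and 48.3 to 263 and 220, and PU.1 from 12.9 and 16.2 to 126 and 134. At 21.9 kb upstream, the Ptges stretch printed above, p65 rose from 3.50 and 1.86 to 397 and 438 (log2 fold change 7.22, SE 0.34, edgeR adjusted p = 6.4e-07), the p65 peak with the lowest p among these genes. HDAC3 rose there from 16.7 and 30.4 to 117 and 207, ERK1 from 0 and 4.62 to 92.2 and 78.9 and p300 from 16.3 and 17.7 to 478 and 485. At 10.0 kb upstream, 7 of 7 tables were called, with p65 at 12.3 and 1.86 against 522 and 587, and PU.1 at 6.21 and 11.2 against 156 and 158 (log2 fold change 4.20, SE 0.21, edgeR adjusted p = 2.9e-40). All 3 sites lie inside the RefSeq record of Ptges (30889471 to 30931020 on chromosome 2, minus strand), although the tables annotate them as intergenic. They are upstream only of the listed start.

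Tbxas1, thromboxane A synthase, held both gains and losses. Its promoter was called for none of the 8 factors; NCoR was at 159 and 159 in Veh and 133 and 105 with KLA, and PU.1 at 156 and 157 against 150 and 126. At 57.1 kb, 7 of 7 tables rose, p65 from 14.9 and 10.3 to 136 and 164 (log2 fold change 3.56), p300 from 26.3 and 11.2 to 139 and 111 (2.72) and NCoR from 46.6 and 38.8 to 90.7 and 107 (1.21). At 42.9 kb, the Tbxas1 intron stretch above with AP-1 and C/EBP matches, p65, Fosl2, PGC1b, ERK1 and p300 rose and no other factor had a peak. At 35.8 kb PGC1b rose from 2.94 and 2.32 to 156 and 101 (log2 fold change 5.57), the PGC1b peak with the lowest p here. In the same gene NCoR fell at 22.3 kb from 580 and 505 to 142 and 118 (-2.06), and at 19.7 kb from 299.9 and 364 to 76.1 and 89.9 (-1.99).

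Hpgds, the hematopoietic prostaglandin D synthase, lost NCoR at its promoter, from 178 and 211 to 83.4 and 92.7 (log2 fold change -1.14, edgeR adjusted p = 0.0019). p65 at the promoter stood at 70.9 and 69.9 in Veh and 148 and 164 with KLA, a log2 fold change of 1.14 that became -0.09 with TMM, so its direction depended on the scaling. PU.1 at the promoter, 255 and 256 against 130 and 133, did not reach 2-fold. The site 20.4 kb upstream lost NCoR (114 and 118 against 25.1 and 20.1), HDAC3 (143 and 155 against 28.1 and 29.9), PU.1 (152 and 163 against 55.6 and 47.8) and p300 (104 and 94.6 against 52.7 and 34.0). Conversely, at the intron site 6.28 kb from the start p65 rose from 2.63 and 5.59 to 156 and 180 (log2 fold change 5.33), Fosl2 from 4.23 and 13.6 to 112 and 207 (4.10) and p300 from 18.8 and 15.1 to 169 and 147 (3.21).

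Both leukotriene genes lost binding. In the Alox5 intron 5.14 kb from the start, whose sequence with its PU.1 match is given above, NCoR fell from 379 and 483 to 101 and 90.6 tags per 10 M (log2 fold change -2.17, SE 0.20, edgeR adjusted p = 6.1e-05). HDAC3 fell from 476 and 380 to 91.4 and 148 (-1.87), PU.1 from 296 and 342 to 105 and 106 (-1.59) and p300 from 186 and 178 to 57.3 and 49.7 (-1.76). The Veh libraries of these 4 factors were all above the KLA libraries. p65, Fosl2, PGC1b and ERK1 at this site had log2 fold changes of -0.46, -2.00, -0.82 and -0.87 and were not called. At 21.4 kb NCoR fell from 93.2 and 115 to 8.91 and 1.38 (-4.38), and at 1.02 kb from the start from 28.7 and 42.4 to 2.43 and 3.46 (-3.53).

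At the Alox5ap promoter 7 of 8 factors fell. PU.1 went from 262 and 261 to 70.0 and 59.3 (log2 fold change -2.02, SE 0.12, edgeR adjusted p = 3.3e-35), p65 from 52.5 and 55.9 to 6.01 and 10.9 (-2.67) and ERK1 from 37.8 and 41.6 to 7.38 and 4.08 (-2.75, edgeR adjusted p = 0.025). NCoR fell from 44.2 and 53.0 to 14.6 and 1.38, HDAC3 from 54.6 and 57.5 to 8.79 and 31.6, PGC1b from 22.9 and 29.3 to 5.46 and 10.9 and p300 from 53.3 and 30.2 to 6.65 and 12.97. Fosl2, with a log2 fold change of -2.36, was not called (edgeR adjusted p = 0.15). At 18.8 kb upstream 6 of 7 tables fell, PU.1 from 311 and 340 to 131 and 124 and PGC1b from 40.0 and 41.8 to 4.37 and 8.58. The NCoR peak with the lowest p in the lower direction was 29.8 kb upstream of this gene, with 355 and 419 in Veh and 54.3 and 54.0 with KLA (log2 fold change -2.84). Not every Alox5ap site fell: at 23.8 kb upstream p65 rose from 22.8 and 28.9 to 68.8 and 103 and p300 from 27.6 and 24.97 to 61.9 and 75.7, and with TMM the gene had 2 higher calls in all.

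The receptor genes differed. Ptger4 gained binding far upstream, in intergenic sequence. The site 19.1 kb upstream, printed above with its C/EBP match, rose in 8 of 8 tables. NCoR rose from 22.7 and 30.6 to 249 and 241 (log2 fold change 3.19, SE 0.25, edgeR adjusted p = 3.6e-05), the NCoR gain with the lowest p among these genes. HDAC3 rose from 36.4 and 27.6 to 243 and 321 (3.14), p65 from 8.76 and 17.7 to 242 and 277 (4.30) and PU.1 from 12.9 and 10.6 to 100.1 and 84.8 (2.95). At 54.7 kb upstream, NCoR, HDAC3, p65, PGC1b and p300 rose, by log2 fold changes of 1.73, 2.09, 3.22, 1.72 and 1.94. The Ptger4 promoter had 1 call, p300 from 35.1 and 40.7 to 20.5 and 11.3 (-1.24).

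Ptger2 had higher and lower sites side by side. At the promoter NCoR fell from 70.5 and 145 to 42.9 and 54.0, HDAC3 from 112 and 110 to 36.3 and 58.0 and PU.1 from 220 and 216 to 80.5 and 97.5 (log2 fold change -1.29). At 86.8 kb beyond the start, 6 of 6 tables fell, HDAC3 from 95.3 and 104 to 2.34 and 0 (-5.79, SE 0.62, edgeR adjusted p = 2.6e-18) and NCoR from 80.1 and 125 to 4.86 and 6.23 (-4.17). ERK1 there had 12.6 and 32.4 in Veh and no tag with KLA, at least 12.4-fold lower. At 59.2 kb, in contrast, p65 rose from 0.876 and 2.80 to 110 and 91.7 (5.72) and p300 from 46.4 and 24.3 to 158 and 156 (2.14), while PU.1, with 66.2 and 72.2 against 120 and 98.8, did not reach 2-fold.

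H3K27ac was then read at these genes. In the DMSO libraries KLA raised 10 and lowered 24 of 53 regions, where 6.73% of all regions were higher and 28.1% lower. The median of all regions was -0.42 on the log2 scale, 0.00 with TMM, which gave 13 higher and 13 lower. Of all 25045 regions, TMM called 3124 higher and 4316 lower. Of the 10 regions higher without TMM, 9 belonged to Pla2g4a and 1 to Hpgds. The Pla2g4a promoter went from 169 and 166 to 583 and 473 tags per 10 M (log2 fold change 1.66), and the region 14.2 kb into the gene from 32.4 and 31.4 to 274 and 211 (2.93). The region 104 kb into the gene, from 9.97 and 14.8 to 163 and 146, had the lowest p of the higher regions (log2 fold change 3.64, SE 0.31, edgeR adjusted p = 1.4e-30). Lower were 6 of 11 Alox5ap, 6 of 8 Ptger2, 4 of 5 Ptgs1, 4 of 6 Hpgds, 2 of 13 Pla2g4a, 1 of 3 Alox5 and 1 of 4 Ptger4 regions. The 2 lower Pla2g4a regions adjoin each other between genes, 1060 kb from the RefSeq start, and went from 132 and 135 to 71.9 and 40.4 (-1.23) and from 93.9 and 105 to 44.0 and 32.8 (-1.35). The Alox5ap promoter went from 115 and 94.2 to 14.9 and 15.99 (-2.76), the Ptger2 start from 184 and 185 to 33.7 and 27.8 (-2.57), the Hpgds promoter from 599.7 and 577 to 245 and 222 (-1.33) and the Ptgs1 region at -13.2 kb from 82.2 and 98.6 to 18.1 and 13.5 (-2.49). This set of regions, like that of the Pgc1b design, held none at Ptgs2 or Ptges.

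RGFP966 was compared with DMSO in KLA-treated cells, a comparison that shares the DMSO KLA libraries with the one before, so the values are given side by side. With the inhibitor 21 of 53 regions were higher and 0 lower, where 26.9% of all regions were higher and 9.53% lower. TMM moved the median of all regions from 0.39 to 0.04 and the members to 13 higher and 3 lower, all 3 of Pla2g4a. Of all 25045 regions, TMM called 4031 higher and 4742 lower. By gene, 5 of 5 Ptgs1, 5 of 8 Ptger2, 4 of 11 Alox5ap, 2 of 6 Hpgds, 2 of 4 Ptger4, 2 of 13 Pla2g4a, 1 of 3 Alox5 and 0 of 3 Tbxas1 regions were higher. At the Ptger2 start the RGFP966 libraries held 140 and 103 tags per 10 M against 33.7 and 27.8 with DMSO (log2 difference 1.97), at the Alox5ap promoter 59.9 and 52.2 against 14.9 and 15.99 (1.86) and at Ptgs1 -13.2 kb 63.2 and 77.2 against 18.1 and 13.5 (2.13). These 3 were also called with TMM. At the Pla2g4a promoter they held 365 and 288 against 583 and 473 (-0.70), a difference below 2-fold that TMM called at -1.04. At the Hpgds promoter the values were 287 and 231 against 245 and 222 and did not differ beyond the test (0.15, edgeR adjusted p = 0.52).

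**Figure D4:**
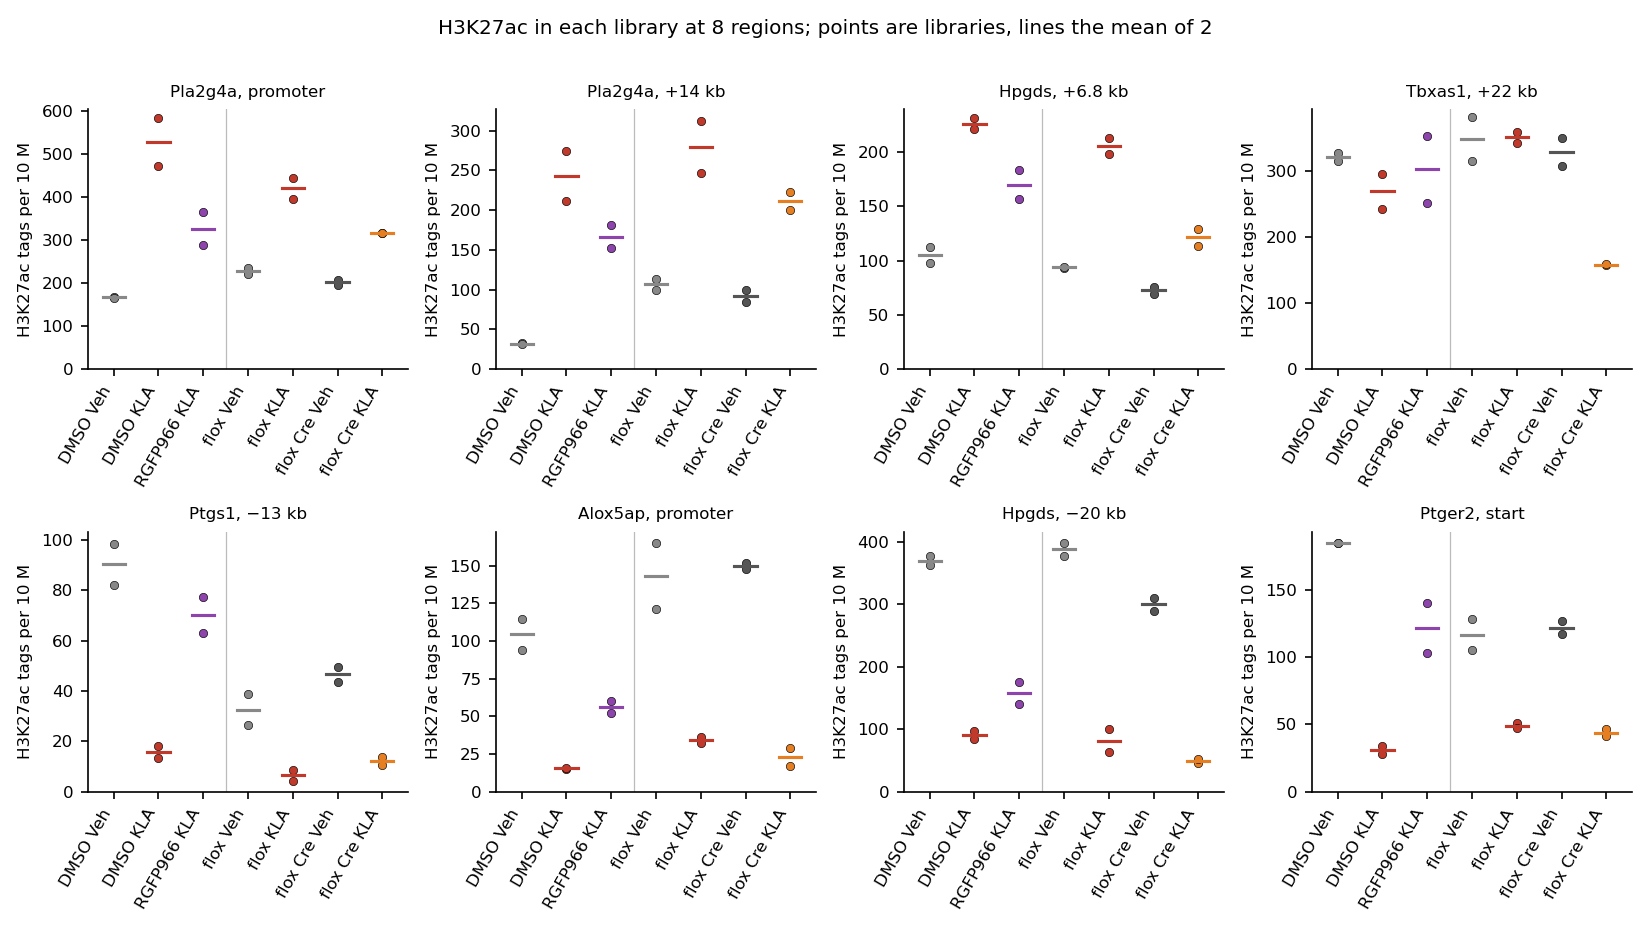
H3K27ac tags per 10 M in each library at 8 regions, for the DMSO and RGFP966 design (left of each grey line) and the Pgc1b design (right), with a line at the mean of 2 libraries. The Pla2g4a regions shown are higher with KLA, the Ptgs1, Alox5ap, Hpgds −20 kb and Ptger2 regions lower, and Tbxas1 +22 kb is lower in the flox Cre KLA libraries (157 and 159) than in the flox KLA libraries (360 and 343).

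In the NCoR design, H3K27ac rose with KLA in WT cells at 5 of 29 regions and fell at 2, against 6.49% and 3.72% of all regions. In NKO cells it rose at 1 and fell at 4, against 2.75% and 7.96%; without NKO Veh replicate 1 there were 3 calls. Both Ptges sites were higher in WT: at 21.9 kb upstream the mark went from 6.93 and 9.68 to 51.6 and 61.4 (log2 fold change 2.74) and at 23.9 kb from 44.8 and 40.7 to 121 and 133 (1.57). In NKO the corresponding values were 16.2 and 18.0 against 45.7 and 38.9 (1.30, called) and 92.9 and 95.8 against 128 and 167 (0.64, not called). The Ptgs2 promoter went from 5.04 and 4.58 to 28.3 and 28.3 in WT and stood at 5.16 and 5.80 against 10.1 and 13.9 in NKO, the latter not called. The Alox5ap promoter fell in both, from 40.3 and 61.1 to 10.1 and 14.5 in WT and from 38.3 and 37.1 to 9.56 and 8.33 in NKO.

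The genotypes were then compared directly. With KLA, edgeR called 0 of 29 regions higher and 0 lower in NKO than in WT, where 0.400% and 0.389% of all regions were. DESeq2 called 0 as well. An unadjusted p under 0.05 was found at 10 of the 29, beside 2463 of all 18504 regions in the edgeR fit. The difference between the 2 KLA responses was called at 0 regions in either direction, against 0.0270% higher and 0.670% lower of all regions. For this difference 9 of the 29 had an unadjusted p under 0.05, beside 2592 of all 18504 regions. At Ptgs2 it was -1.44 (SE 0.81, edgeR adjusted p = 0.42), at Ptges 21.9 kb upstream -1.44 (edgeR adjusted p = 0.18) and at Ptges 23.9 kb upstream -0.93 (edgeR adjusted p = 0.083). With 1 library left out the KLA comparison had 1 call without NKO KLA replicate 1 or WT KLA replicate 1, and the difference of responses 2 without NKO Veh replicate 2 and 1 without WT KLA replicate 1. With Veh, 2 regions were higher in NKO and 0 lower, against 0.973% and 0.0270%. These were Ptges 23.9 kb upstream, 92.9 and 95.8 against 44.8 and 40.7 (log2 difference 1.14, SE 0.20, edgeR adjusted p = 0.00078), and Tbxas1 at 22.2 kb, 72.3 and 48.2 against 26.5 and 31.6 (1.03). TMM and DESeq2 called neither, and leaving out NKO Veh replicate 1, WT Veh replicate 1 or WT Veh replicate 2 left 1, 1 and 0.

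PGC1b deletion was read in the same way, in comparisons that share libraries with each other. In PGC1b flox/flox cells KLA raised 7 and lowered 18 of 52 regions, against 5.22% and 25.6% of all regions, and with TMM 11 and 12. In PGC1b flox/flox, LysMCre cells it raised 5 and lowered 28, against 4.18% and 32.5%, and with TMM 9 and 8. Of all 25197 regions, TMM called 2480 higher and 3470 lower in the flox cells and 2712 and 3598 with Cre. The Pla2g4a region 14.2 kb into the gene rose in both, from 113 and 99.8 to 246 and 313 and from 99.8 and 84.9 to 223 and 201. Of 13 Pla2g4a regions 6 were higher and 3 lower in the flox cells, and 5 and 2 with Cre, the lower ones all 1060 kb from the RefSeq start. The Alox5ap promoter fell in both, from 165 and 121 to 32.5 and 36.6 and from 152 and 148 to 28.9 and 16.9. The Hpgds region 20.4 kb upstream, with 398 and 378 against 99.8 and 63.9 in flox cells and 311 and 289 against 45.5 and 52.1 with Cre, also fell in both.

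With KLA, 3 regions were lower in the LysMCre cells than in the flox cells and 0 higher, where 6.81% and 0.702% of all regions were; without flox Cre KLA replicate 1 there were 6. All 3 lay in Tbxas1 introns. At 22.2 kb the mark was 157 and 159 against 360 and 343 tags per 10 M (log2 difference -1.15, SE 0.10, edgeR adjusted p = 2.5e-26), at 19.6 kb 133 and 105 against 261 and 244 (-1.09) and at 56.0 kb 216 and 221 against 448 and 469 (-1.07). With TMM, which moved the median of all regions from -0.38 to 0.01, these fell short of 2-fold (-0.76 at 22.2 kb, edgeR adjusted p = 3.4e-11) and 1 Ptgs1 region 13.2 kb upstream was called higher, and DESeq2 called 0 regions of these genes. Of all 25197 regions, TMM called 478 higher and 273 lower. With Veh, edgeR and DESeq2 called 0 regions higher and 0 lower, against 0.107% and 0.290%. An unadjusted p under 0.05 was found at 12 regions of these genes, beside 7247 of all 25197 regions in the edgeR fit. With TMM 1 Alox5 region was called, beside 31 higher and 6 lower of all 25197 regions. The difference between the 2 KLA responses was called at 1 region, lower, Tbxas1 22.2 kb (-1.07, SE 0.14, edgeR adjusted p = 1.1e-12), and at 0 higher, against 4.60% and 0.770% of all regions. With TMM and with DESeq2 this difference was -0.89, below the 2-fold minimum, with adjusted p of 1.7e-08 and 1.1e-05, and neither called any region of these genes. Of all 25197 regions, TMM called 583 lower and 353 higher. Leaving out 1 library gave 4 calls without flox Cre KLA replicate 1, 0 without flox Cre Veh replicate 1, and 2 each without flox Cre Veh replicate 2, flox KLA replicate 1, flox KLA replicate 2 or flox Veh replicate 2.

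PGC1b binding with DMSO was a second measure of the KLA response in separate libraries. KLA raised 59 and lowered 3 of 143 PGC1b peaks, against 16.4% and 1.23% of all peaks. TMM gave 44 and 7, beside 4658 and 1543 of all 53474 peaks. Without TMM, leaving out DMSO Veh replicate 1 left 41 calls. By gene, 13 of 13 Ptgs2 peaks, 5 of 6 Ptges, 22 of 31 Pla2g4a, 10 of 22 Tbxas1, 7 of 19 Ptger4 and 2 of 14 Ptger2 peaks were higher, and 1 peak each of Ptgs1, Alox5 and Ptger2 was lower. The Ptgs2 peaks covered the gene from the promoter, with 20.3 and 5.83 against 124 and 125, to 9.45 kb, with 0.812 and 4.37 against 67.1 and 74.4. At 8.77 kb no Veh tag was found and 53.3 and 16.4 with KLA, at least 20.6-fold higher.

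ERKi with KLA was compared with DMSO and KLA for PGC1b. Of 143 peaks 1 was lower and 0 higher, against 0.178% and 0.108% of all peaks. That peak was Tbxas1 42.9 kb, where PGC1b went from 90.8 and 103 to 17.2 and 9.05 (log2 difference -2.89, SE 0.60, edgeR adjusted p = 0.033). It was not called with TMM or with any of the 4 libraries left out. At Ptgs2, PGC1b with ERKi was at 145 and 138 at the promoter against 124 and 125, and the log2 difference was above 0 at 11 of 13 peaks, none of them called. At the Hpgds promoter it was at 34.4 and 36.2 against 109 and 137, which missed the threshold (edgeR adjusted p = 0.050).

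For NCoR, ERKi with KLA was compared with KLA alone, and these KLA libraries also enter the comparison with Veh. Of 145 peaks 79 were lower and 0 higher, where 48.6% of all peaks were lower and 0.634% higher, and the median log2 difference was -1.29 for these genes and -1.20 for all peaks. TMM moved the median of all peaks to -0.04 and left 3 higher and 8 lower, beside 1985 and 1946 of all 57573 peaks. The KLA libraries carry another library code than the ERKi libraries, and no NCoR library had DMSO with KLA, so the inhibitor, the solvent and the library batch cannot be told apart. Without KLA replicate 1 there were 50 calls and without KLA replicate 2 there were 49. The Ptgs2 promoter went from 165 and 158 to 68.5 and 44.8 (log2 difference -1.51), Ptger4 19.1 kb upstream from 264 and 259 to 91.3 and 65.5 (-1.74) and the Hpgds promoter from 102 and 116 to 19.4 and 19.8 (-2.47). The last of these was still called with TMM, at -1.31. Ptges 23.9 kb upstream, with 290.0 and 242 against 149.6 and 153, was not called, and 0 of 3 Ptges peaks were. At Alox5 5.14 kb the values were 101 and 90.6 against 60.9 and 57.7, also not called.

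**Figure D5:**
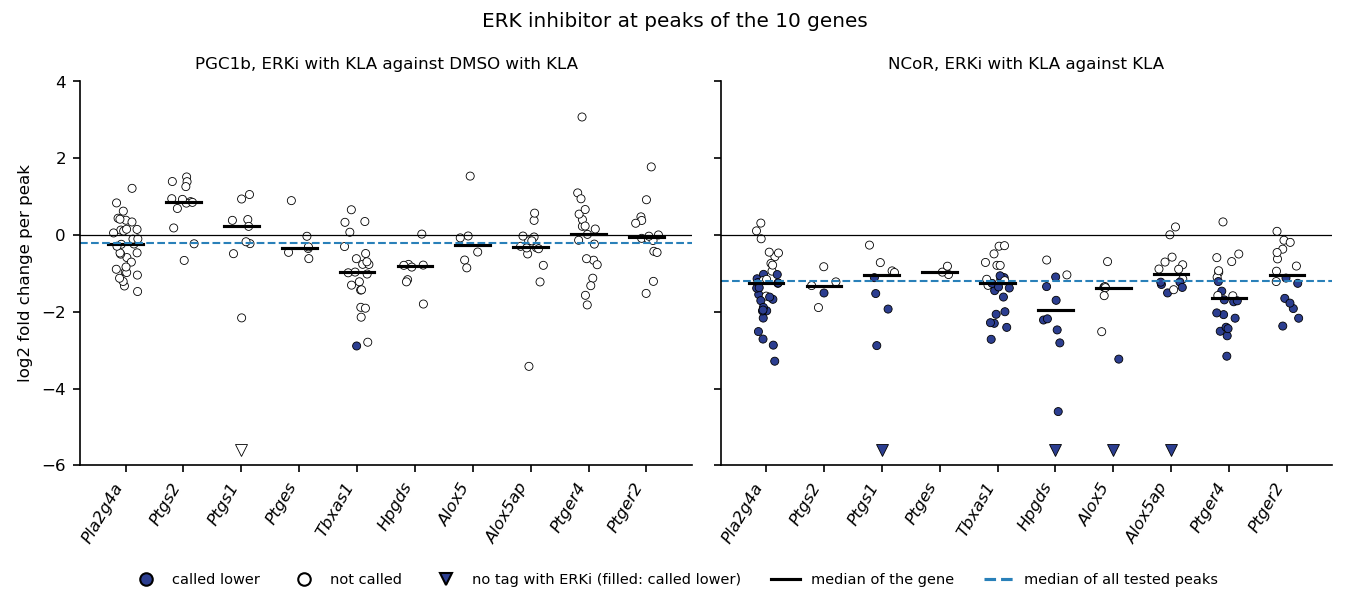
log2 difference of each tested peak of the 10 genes with ERKi and KLA, for PGC1b (left, against DMSO with KLA) and NCoR (right, against KLA), with black lines at the median of each gene, a dashed line at the median of all tested peaks, and triangles, left out of the gene medians, for peaks with no tag in the ERKi libraries. Most NCoR points lie below 0 around the dashed line at -1.20, and PGC1b has 1 filled point, in Tbxas1.

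During osteoclast differentiation, p300 peaks of these genes were called higher at day 4 than at day 0 at 21 of 32 and lower at 0, where 62.2% of all p300 peaks were higher and 0.248% lower. The median of all peaks was 1.84, and 0.22 with TMM, which left 2 higher, beside 1773 of all 20143 peaks. Without day 4 replicate 1 there were 4 calls and without day 4 replicate 2 there were 5. The 2 that TMM kept were Tbxas1 63.3 kb from the start, with 0.879 and 0 against 66.5 and 59.0 (log2 fold change 6.38, edgeR adjusted p = 0.00024), and Ptges 3.81 kb inside the gene, with 1.76 and 0 against 44.0 and 54.4 (5.18). In BMDMs p300 at the Tbxas1 place held 50.8 and 25.6 tags per 10 M in Veh and 62.9 and 59.4 with KLA and was not called. No peak was assigned to Ptgs2 or Ptgs1 in this table. For ERK1, 1 of 35 peaks was higher, Alox5ap 22.4 kb upstream with 0.861 and 2.10 against 49.8 and 23.9 (log2 fold change 4.54, edgeR adjusted p = 0.028), and 0 lower, where 2.33% and 0.0267% of all peaks were. TMM called 0, and leaving out a day 0 library gave 3 and 4 calls and a day 4 library 0 and 0.

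Another 44 genes of eicosanoid synthesis, transport and signalling were listed for comparison. Over the 8 factors 10 of them had only higher calls with KLA, 4 only lower, 17 both and 13 none. For p65, 56 of 105 of their peaks were higher and 5 lower, for NCoR 16 and 29 of 109, for HDAC3 13 and 20 of 94, for p300 59 and 32 of 168 and for PU.1 3 and 36 of 125. These counts stand beside 57.0% higher and 5.43% lower of all peaks for p65, 23.4% and 16.7% for NCoR, 27.5% and 11.3% for HDAC3, 42.1% and 12.9% for p300 and 4.53% and 21.7% for PU.1. For PGC1b it was 8 and 7 of 96, for ERK1 3 and 1 of 47 and for Fosl2 4 and 3 of 66, beside 16.4% and 6.35%, 10.3% and 2.53%, and 11.4% and 4.19% of all peaks. The genes with the most calls in 1 direction alone or nearly so were chosen after their values were seen, and are read against the 26.6% higher and 11.1% lower of all peaks. Abcc4, an exporter of prostaglandins, had 42 higher and 0 lower of 81, and Cysltr2, a receptor for cysteinyl leukotrienes, 18 and 0 of 31. Pla2g7, which degrades platelet-activating factor, had 14 and 0 of 39. Hpgd, the dehydrogenase that inactivates prostaglandins, had 1 higher and 26 lower of 39, and Pla2g15, a lysosomal phospholipase, 0 and 10 of 31.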

How the data were processed

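The data were 70 ChIP-seq libraries of mouse macrophages and of cells at day 0 and day 4 of osteoclast differentiation, for H3K27ac and 8 factors. According to the labels and the study's methods, the authors aligned reads to mm10 with Bowtie2, made HOMER tag directories and merged the factor peaks of a table over its conditions. They deposited raw tag counts per peak, without normalization, and the H3K27ac counts were taken over ATAC-seq regions: the set of NKO cells with KLA for the WT and NKO table, and the set of WT cells with KLA, in windows of 1000 bp, for the other 2. Program versions were not given in the sources used here. The authors used DESeq2 for their own comparisons. By the labels, the p300 Veh libraries are KLA0h, and 1 ERK1 library of day 4 has conflicting replicate numbers (2 in its title, 3 in its description). That ERK1 library also carries another library code than the other ERK1 libraries of osteoclast differentiation, so a batch cannot be told apart from its replicate.

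Here each count was divided by the library total in its column header (4.30 to 21.5 M) and is given per 10 M tags. Peaks with at least 4 tags (H3K27ac regions 16) in 1 library were fitted with edgeR 4.0.16 in R 4.3.3 (quasi-likelihood F-test, two-sided, limma 3.58.1), 1 fit per table and 25 comparisons of 2 against 2. The fit was tested on simulated data. A single draw for the PGC1b table missed the limit set for the median error, so the test was changed to the mean of 5 draws per table, that draw included, and the means met the same limits. P-values were adjusted by Benjamini-Hochberg over all peaks tested, and a call needed an adjusted p under 0.05 and more than 2-fold. A group with no tag was set to a floor of 3 tags over the group. Floors cover counting error only. Shallow libraries give less precise values, in particular Fosl2 KLA replicate 1 (4.30 M) and HDAC3 KLA replicate 2 (5.69 M).

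Peaks whose centres lay within 500 bp were joined to sites across tables. The text names, for each gene, the promoter site (within 2 kb of the start), up to 2 further sites with the most of the 8 KLA comparisons called, ties going to the higher sum of tags, and the called peak with the lowest p in each direction of each comparison. Other sites named, among them all with no tag in a group, were chosen after their values were seen. Genes like Ptgs2 were ranked over 7 comparisons, since PU.1 had no Ptgs2 peak. The genes and lists were chosen with earlier results of these data known. Alternatives were TMM scaling, DESeq2 1.42.0, no filter, the replicate number as a block, and each library left out in turn. Replicate numbers did not pair the samples by any source, and deviations of same-numbered libraries correlated by -0.0266 to 0.0255. Replicates of no group agreed within counting noise (chi-square per degree of freedom 1.36 to 12.8). Promoter sequences came from RefSeq on mm10 and peak sequences from the mm10 genome. Python 3.11.15 with pandas 2.3.3, numpy 2.4.6 and matplotlib 3.10.9 served for counts and figures.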

Additional observations from a re-analysis of the deposited data

Results flagged for a closer look

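A difference between genotypes marked 1 result. The KLA response of H3K27ac in the Tbxas1 intron 22.2 kb from the start was lower in PGC1b flox/flox, LysMCre cells than in PGC1b flox/flox cells, by -1.07 on the log2 scale (SE 0.14, edgeR interaction test, adjusted p = 1.1e-12). Of all regions, 4.60% were called lower and 0.770% higher in this comparison, with a median of -0.175. Such a call was therefore not particular to these genes. In the flox cells the mark was at 360 and 343 tags per 10 M with KLA, in the LysMCre cells at 157 and 159, with Veh at 316 and 382 in the flox cells and at 350 and 308 in the LysMCre cells. With TMM scaling and with DESeq2 the difference was -0.89, below the 2-fold minimum for a call, while the adjusted p stayed under 0.05 (1.7e-08 with edgeR and TMM, 1.1e-05 with DESeq2). It was also below 2-fold without flox Cre Veh replicate 1 (-0.98) and without flox Veh replicate 1 (-0.94). Groups of 2 are too small to look for single libraries that stand apart within a group.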

How the results depend on the processing

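Counts of called member peaks within 1.5 times of those given above are not repeated. For Fosl2 the 30 calls became 49 with DESeq2, 46 with TMM and 16 with the replicate block. For NCoR with ERKi 79 became 12 with DESeq2 and 11 with TMM, for p300 at day 4 21 became 1, 2 and, with the block, 10, for ERK1 at day 4 1 became 0 and 0, and for PGC1b with ERKi 1 became 4, 0 and, with the block, 0. For H3K27ac, KLA in flox Cre cells went from 33 to 17 with DESeq2 and 17 with TMM, flox Cre against flox with KLA from 3 to 0 and 1, with Veh from 0 to 1 with TMM, and the difference of their responses from 1 to 0 and 0. NKO against WT with Veh went from 2 to 0 with DESeq2, 0 with TMM and 1 with the block, and without a filter NKO against WT with KLA and the difference of responses each went from 0 to 1. The numbers are shared by name alone, and the block changed no other count of calls by over 1.5 times. The cause of these changes was not tested, except that TMM and DESeq2 set the median of all peaks near 0 by construction. The shares of all peaks called also differed between these settings.

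With each library left out in turn, called peaks ranged from 45 to 89 for NCoR, 34 to 75 for HDAC3, 56 to 99 for p65, 0 to 56 for Fosl2, 45 to 48 for PU.1, 32 to 62 for PGC1b, 11 to 24 for ERK1 and 83 to 106 for p300. For H3K27ac they ranged from 5 to 7 in WT, 3 to 6 in NKO, 0 to 1 for NKO against WT with KLA, 0 to 2 with Veh and 0 to 2 for the difference of responses, 32 to 34 with DMSO, 15 to 21 with RGFP966, 25 to 28 in flox cells, 29 to 32 in flox Cre cells, 3 to 6 for flox Cre against flox with KLA, 0 to 0 with Veh and 0 to 4 for the difference of responses. They ranged from 41 to 52 for PGC1b with DMSO, 0 to 0 for PGC1b with ERKi, 49 to 75 for NCoR with ERKi, 4 to 25 for p300 at day 4 and 0 to 4 for ERK1 at day 4. Where 1 library of a group remained, it was assumed to vary like the others.

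Of 3561 alternative values for the 434 named-site results, 3237 were classed as the same, 231 lost the call, 81 gained one and 12 reversed. These classes do not track the sign alone: in 146 values it changed without a call. The reversed log2 values, DESeq2 first and TMM second, were -0.0523 and -0.0856 for p65 at the Hpgds promoter. For NCoR with ERKi they were 0.0779 and 0.0653 at Hpgds -20.4 kb, 0.065 and 0.0527 at Ptgs1 -13.2 kb and 0.0714 and 0.0587 at the Tbxas1 promoter. For p300 at day 4 they were -0.3405 and -0.4544 at Alox5 5.14 kb, and, with TMM alone, -0.0342 at Hpgds -20.4 kb and -0.0142 at the Hpgds promoter. Low tag numbers limit peaks with few tags in both groups, for which no difference was detectable at this depth.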
